A study of Mus musculus with 32 samples.

Results

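Microtubules of the retinal pigment epithelium (RPE) are described here through 10 of the 34453 genes listed: 6 β-tubulins (*Tubb4a*, *Tubb2a*, *Tubb2b*, *Tubb3*, *Tubb5*, and *Tubb6*), the α-tubulin *Tuba1a*, the tubulin cofactor-like gene *Tbcel*, and the microtubule-associated proteins *Map1a* and *Map1b*. The genes were matched by symbol, and all 10 passed the filter on low counts in every comparison. The choice was made after *Tubb4a*, *Tbcel*, and *Map1a* had been seen to be higher with Nrf2 in these data. The values of those 3 genes in the comparisons that led to the choice are therefore given as a description without a test, and the other 7 genes carry adjusted *P* values from the fit over all genes.

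RNA was measured in 32 libraries from both eyes of 16 mice labelled as *rd1*. Mice of this strain lose their rods because of a mutation in *Pde6b*. In each mouse, one eye (the Nrf2 eye) was injected with 2 viruses, AAV Best1 GFP and AAV Best1 Nrf2, while its fellow eye (the control eye) received the GFP virus alone, so that all eyes carried AAV Best1 GFP. There were 7 mice at P20 and 9 mice at P40, and therefore 4 groups of eyes. The Best1 promoter is active in the RPE, the transgene is human (*NFE2L2*), and the RNA was taken from the supernatant of the eyecup after removal of the retina and was amplified. The methods of the study name fewer *rd1* pairs at each age than the labels do, and also pairs of CD1 mice at P40, which in these labels cannot be told apart. All labelled pairs were used as *rd1*, and whether any P40 pair came from CD1 mice was not tested.

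Microtubules are hollow polymers of α- and β-tubulin dimers that act as tracks for transport and, in the RPE, run mostly along the apicobasal axis and carry pigment granules and phagosomes. Mammals have several genes for each tubulin, whose products differ mainly in the acidic C-terminal tail. Newly made tubulin is folded by prefoldin, a chaperonin, and the cofactors TBCA to TBCE, and MAP1A and MAP1B bind along the polymer. Nrf2 is a transcription factor that binds antioxidant response elements, known above all for switching on genes of glutathione and thioredoxin metabolism.

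Depth was between 16548332 and 50542797 estimated counts per library, and levels are given as CPM, counts scaled to library size, after TMM normalization. The transgene was measured at 3129 to 10483 CPM in the Nrf2 eyes at P40 and at 0 to 92.8 CPM in the control eyes. At P20, 2 libraries stood apart. The library labelled as the control eye of mouse 3 held 1109.8 CPM of the transgene, and the library labelled as the Nrf2 eye of mouse 4 held 1096 CPM, against 0.948 to 155 CPM in the other control eyes and 4882 to 9616 CPM in the other Nrf2 eyes. Of all 496 pairs of libraries, these 2 from different mice were also the closest, with an SD of the difference in log2 CPM over genes of 0.211, against 0.380 in the next closest pair. The labels of these 2 libraries are in doubt, and whether each belongs to the eye it names was not tested. The P20 differences of mice 3 and 4 rest on these labels, so results at P20 are given with and without both mice. RPE markers made up 4961 to 66394 CPM per library, whereas summed cone and rod markers were at most 2165 and 303 CPM. Summed markers of the melanocyte list were at 1316 to 13864 CPM, and those of inner retinal neurons were at most 2293 CPM. Summed Schwann cell markers were highest in the 2 libraries that stood apart, at 3043 CPM for mouse 3 and 2941 CPM for mouse 4. The part of these cells in the levels was not tested.

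Sequences of the antioxidant response element core, TGACNNNGC on either strand, were looked for in the promoters listed by RefSeq (GRCm38.p6), from 250 bases before to 50 bases after each start. The table held 10 promoters for 8 of the 10 genes. Matches were found in 5 promoters of 3 genes, namely *Tbcel*, *Tubb4a*, and *Tuba1a*. Of all 32851 promoters in the table, 12.4% held a match, and 0.986% held at least 2. The windows are shown because *Tubb4a* and *Tbcel* had the largest differences of the 10 genes between the eyes. Each is written along the gene's own strand with the matched letters in capitals, and a match on the other strand reads GCNNNGTCA.

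Tbcel, chr9:42457791-42457819, minus strand: ccagtcctggTGACCTGGCtgcccaaagt
Tbcel, chr9:42457608-42457636, minus strand: gggcctggtgGCCGGGTCAcctgcgtgtc
Tbcel, chr9:42461487-42461515, minus strand: gaagtcagcaTGACTCAGCaagattaggt
Tbcel, chr9:42461458-42461486, minus strand: acagcaaggaTGACTTAGCatgctagtgt
Tbcel, chr9:42472252-42472280, minus strand: gacacgtgcgGCGGGGTCAcgtgttgttg
Tubb4a, chr17:57087643-57087671, minus strand: agcacgcgggTGACCCAGCggtgacgtga
Tuba1a, chr15:98953574-98953602, minus strand: atccccatggTGACAGAGCtgtatataag

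*Tbcel* spans chr9:42412316-42507809 on the minus strand of GRCm38, and all 3 of its listed promoters lie inside the annotated gene. Each of the 3 held at least 1 match, and 2 of them held 2. The match TGACTCAGC, 77 bases before its start, also contains the AP-1 letters TGANTCA. The matches in *Tubb4a* (61 bases before the listed start), in *Tuba1a* (91 bases), and in the third *Tbcel* promoter (32 bases) lie in annotated exons. The promoters of *Tubb2a*, *Tubb3*, *Tubb5*, *Map1a*, and *Map1b* did not hold these letters. Among 9 other α- and β-tubulin genes, the promoters of *Tubb1* and *Tuba1c* held a match. A match describes letters in a window and says nothing of binding. The part of the second *Tbcel* promoter outside annotated exons of the gene, chr9:42461462-42461678, is shown for the spacing of its 2 matches.

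Tbcel: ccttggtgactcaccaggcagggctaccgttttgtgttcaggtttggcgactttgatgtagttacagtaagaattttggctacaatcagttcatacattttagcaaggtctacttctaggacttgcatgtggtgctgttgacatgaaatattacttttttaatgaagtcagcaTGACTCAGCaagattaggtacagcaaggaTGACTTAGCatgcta

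How far the genes can be told apart by their reads also differed. The coding sequences of *Tubb2a* and *Tubb2b* were 96.5% identical, against 81.0% to 86.3% for the other pairs of the 6 β-tubulins. The last 60 coding bases before the stop codon, which encode the C-terminal tail, are shown for these 2 genes because this is where β-tubulins usually differ most. Capitals mark the 3 bases of *Tubb2b* that differ from *Tubb2a*.

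Tubb2a: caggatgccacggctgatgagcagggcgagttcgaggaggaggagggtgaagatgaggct
Tubb2b: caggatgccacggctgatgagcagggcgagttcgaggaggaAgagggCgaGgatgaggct

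Of the 31-base words in the exons of *Tubb2a*, 56.4% occurred in another gene, mostly in *Tubb2b*. The share was 43.1% for *Tubb2b* and 69.5% for *Tuba1a*, whose words recurred in *Tuba1c* and *Tuba1b*. It was 1.73% for *Tubb4a*, 2.09% for *Map1a*, and 0.118% for *Tbcel*. The values of *Tubb2a*, *Tubb2b*, and *Tuba1a* thus rest on how the counting divided shared reads. *Map1a* shares 272 exonic bases with *Ppip5k1* on the opposite strand, and the libraries did not mark strand.

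The question of the first comparison was how RPE with added Nrf2 differs from the RPE of the same mouse without it. *Tubb4a*, *Tbcel*, and *Map1a* were higher in the Nrf2 eye of all 7 mice at P20 and of all 9 mice at P40, by 3.20-fold to 10.1-fold in the fit. Of the other 7 genes, *Tubb2a* rose at P20, and *Tubb2a*, *Tubb5*, and *Tuba1a* rose at P40. *Tubb2b*, *Tubb3*, *Tubb6*, and *Map1b* did not pass the test at either age. In all, 4 of the 10 genes passed the threshold at P20, beside 3.41% of the 16303 genes tested in either direction and 2.93% higher, and 6 of 10 at P40, beside 4.57% of 16686 in either direction and 3.33% higher. Because the genes were chosen on this contrast, nothing is read from these counts. The count at P20 was 1 when mouse 1, 5, or 7 was left out, 2 without mouse 3, and 4 without both mice 3 and 4. Without both mice, *Tubb5*, *Tuba1a*, and *Map1b* differed by 0.36, 0.29, and 0.37 on the log2 scale (edgeR adjusted *P* = 0.208, 0.507, and 0.554). *Tubb2b*, *Tubb3*, and *Tubb6* then differed by −0.58, −1.75, and −0.06 (edgeR adjusted *P* = 0.265, 0.419, and 0.810).

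*Tubb4a* (chr17:57080066-57087782, minus strand) encodes a β-tubulin best known from oligodendrocytes and neurons. At P20, its lowest, median, and highest levels were 41.6, 76.4, and 207 CPM in the 7 control eyes and 177, 739, and 1233 CPM in the 7 Nrf2 eyes. The 2 groups overlapped through the 2 libraries that stood apart, since the highest control value came from mouse 3 and the lowest Nrf2 value from mouse 4, and the other 6 Nrf2 eyes were at 664 CPM or more. At P40, the same values were 35.4, 46.7, and 64.6 CPM in the 9 control eyes and 217, 556, and 749 CPM in the 9 Nrf2 eyes, which did not overlap. In the fit, *Tubb4a* was 8.59-fold higher in Nrf2 eyes at P20 (log2 3.10 ± 0.47, SE, n = 7 mice) and 9.08-fold higher at P40 (log2 3.18 ± 0.24, SE, n = 9 mice). Without P20 mice 3 and 4, the log2 difference at P20 was 3.70 ± 0.20 (SE, n = 5 mice). The plot of CPM per library shows this gene and the other 9.

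**Figure D1:**
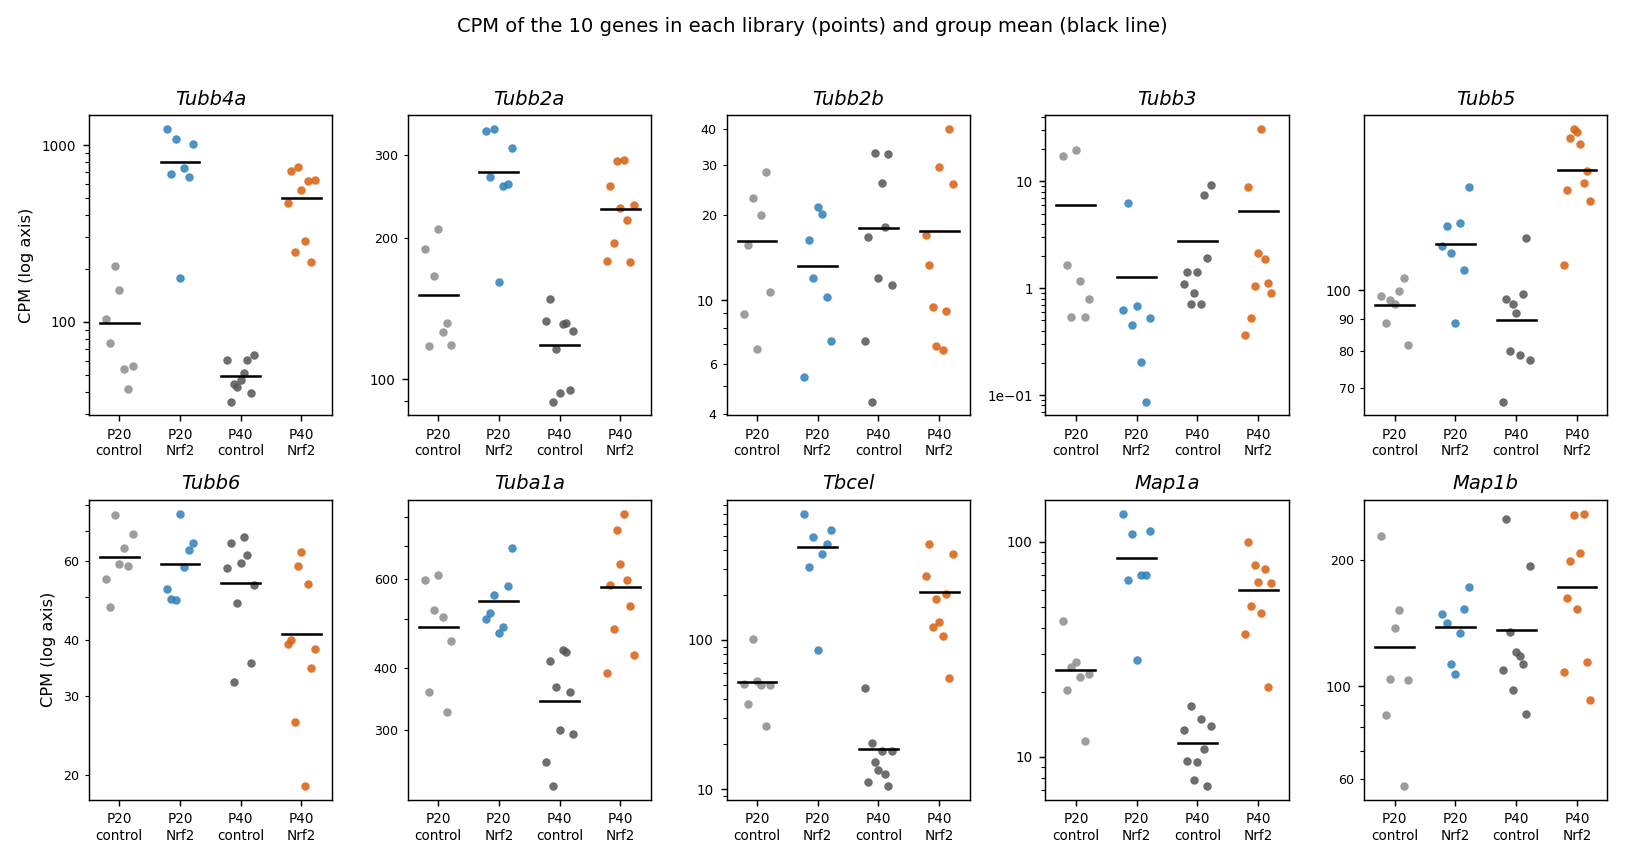
CPM in each of the 32 libraries, on a log axis, for the 10 genes in the 4 groups of eyes, with a line at the group mean. *Tubb4a*, *Tubb2a*, *Tbcel*, and *Map1a* did not overlap between control and Nrf2 eyes at P40, whereas *Tubb3* spread from 0.366 to 30.97 CPM within the P40 Nrf2 eyes.

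*Tubb2a* (chr13:34074274-34078007, minus strand) is one of the main β-tubulins of brain. It was measured at 118, 132, and 209 CPM (lowest, median, highest) in P20 control eyes and at 162, 269, and 342 CPM in P20 Nrf2 eyes. The groups overlapped, and mouse 4 was the only mouse of 7 with a lower value in the library labelled as its Nrf2 eye. At P40, it was at 89.7, 127, and 148 CPM in control eyes and at 178, 232, and 293 CPM in Nrf2 eyes, with no overlap and a higher value in the Nrf2 eye of all 9 mice. Among all genes tested, 1.16% were higher in Nrf2 eyes at P40 without overlap. The rise passed the quasi-likelihood test of edgeR at P20 (log2 0.86 ± 0.19, SE, n = 7 mice, adjusted *P* = 0.0459 over all genes) and at P40 (0.92 ± 0.14, SE, n = 9 mice, adjusted *P* = 0.00252). At P20 the call was fragile: it held in 7 of 16 alternative fits and in 1 of the 7 that left out a mouse, with edgeR adjusted *P* values up to 0.153, whereas without both mice 3 and 4 the log2 difference was 1.05 (edgeR adjusted *P* = 0.0114).

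Because *Tubb2a* shares so many bases with *Tubb2b* (chr13:34126748-34130466, minus strand), their counts were also summed. *Tubb2b* itself was the less abundant of the 2, at 16.2 ± 7.95 CPM in P20 control eyes, 13.2 ± 6.18 in P20 Nrf2 eyes, 17.9 ± 10.5 in P40 control eyes, and 17.5 ± 11.7 in P40 Nrf2 eyes (SD, n = 7 and 9 eyes per group). The Nrf2 eye held more of it in 3 of 7 mice at P20 and in 5 of 9 at P40, and its groups overlapped at both ages. The log2 differences were −0.34 ± 0.35 and −0.05 ± 0.42 (SE, edgeR adjusted *P* = 0.647 and 0.985). The sum of both genes rose by 0.77 at P20 and by 0.83 at P40 on the log2 scale (edgeR adjusted *P* = 0.0422 and 0.00348).

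*Tubb5* (chr17:35833921-35838306, minus strand) encodes a β-tubulin made in most cells. It was at 81.9, 96.5, and 105 CPM (lowest, median, highest) in P20 control eyes and at 88.7, 118, and 146 CPM in P20 Nrf2 eyes. At P40 it was at 66.6, 91.8, and 121 CPM in control eyes and at 109, 154, and 180 CPM in Nrf2 eyes. The groups overlapped at both ages, but at P40 the Nrf2 eye was higher in all 9 mice. The rise at P40 was 0.75 ± 0.14 on the log2 scale (SE, n = 9 mice, edgeR adjusted *P* = 0.00691), and the difference at P20 was 0.29 ± 0.12 (SE, n = 7 mice, edgeR adjusted *P* = 0.236).

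*Tubb3* (chr8:123411424-123422015, plus strand), the β-tubulin used as a marker of neurons, was at 5.95 ± 8.60 CPM in P20 control eyes, 1.27 ± 2.25 in P20 Nrf2 eyes, 2.78 ± 3.24 in P40 control eyes, and 5.32 ± 9.97 in P40 Nrf2 eyes (SD, n = 7 and 9 eyes per group). A few libraries carried these means. The highest were a P40 Nrf2 eye of mouse 6 at 30.97 CPM and the P20 control eyes of mice 4 and 1 at 19.7 and 17.3 CPM. Those 3 libraries also held the highest sums over 16 markers of inner retinal neurons, at 2293, 1254, and 1265 CPM, against a median between 128 and 207 CPM in the 4 groups, and no marker of that list was at 0 in every library. The part of retinal neurons in the *Tubb3* values was not tested. The log2 differences between the eyes were −1.99 ± 0.96 at P20 and −0.21 ± 0.82 at P40 (SE, edgeR adjusted *P* = 0.316 and 0.969).

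*Tubb6* (chr18:67390717-67402749, plus strand), a β-tubulin of many non-neuronal tissues, was at 61.3 ± 9.41 CPM in control and 59.2 ± 10.1 CPM in Nrf2 eyes at P20 (SD, n = 7). At P40 it was at 53.6 ± 12.7 CPM in control and 41.4 ± 14.6 CPM in Nrf2 eyes (SD, n = 9), with a lower value in the Nrf2 eye of 7 of 9 mice. It was thus the one β-tubulin with a lower mean in Nrf2 eyes at both ages besides *Tubb2b*, and its groups overlapped. The log2 differences were −0.07 ± 0.13 and −0.46 ± 0.19 (SE, edgeR adjusted *P* = 0.804 and 0.315).

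*Tuba1a* (chr15:98949837-98953703, minus strand) encodes the α-tubulin that dominates in developing neurons. It was at 327, 504, and 613 CPM (lowest, median, highest) in P20 control eyes and at 468, 513, and 693 CPM in P20 Nrf2 eyes, so that the 2 groups largely overlapped. At P40 it was at 232, 357, and 433 CPM in control eyes and at 390.4, 583, and 811 CPM in Nrf2 eyes, and the Nrf2 eye was higher in 4 of 7 mice at P20 and in 9 of 9 at P40. The log2 difference was 0.17 ± 0.17 at P20 (SE, n = 7 mice, edgeR adjusted *P* = 0.632) and 0.70 ± 0.15 at P40 (SE, n = 9 mice, edgeR adjusted *P* = 0.0160). With the counts of *Tuba1a*, *Tuba1b*, and *Tuba1c* summed, the differences were 0.68 and 0.95 (edgeR adjusted *P* = 0.0789 and 0.00686).

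*Tbcel* encodes a protein like cofactor E, which binds α-tubulin and can take dimers apart. At P20, its lowest, median, and highest levels were 26.5, 49.7, and 101 CPM in control eyes and 85.5, 436, and 703 CPM in Nrf2 eyes. The overlap again came from the control library of mouse 3 and the Nrf2 library of mouse 4. At P40, the levels were 10.5, 15.2, and 47.8 CPM in control eyes and 55.6, 189, and 440 CPM in Nrf2 eyes, without overlap. The fitted differences were 7.49-fold at P20 (log2 2.90 ± 0.39, SE, n = 7 mice) and 10.1-fold at P40 (log2 3.34 ± 0.33, SE, n = 9 mice), and 3.41 ± 0.22 on the log2 scale at P20 without mice 3 and 4.

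*Map1a* (chr2:121289600-121310832, plus strand) and *Map1b* (chr13:99421446-99516540, minus strand) encode large, related lattice-binding proteins of neurons, whose coding sequences were 55.8% identical over the longer one of 9042 bases. *Map1a* was at 11.9, 24.3, and 42.9 CPM (lowest, median, highest) in P20 control eyes and at 28.2, 70.3, and 136 CPM in P20 Nrf2 eyes. At P40 it was at 7.32, 10.8, and 17.3 CPM in control eyes and at 21.1, 64.5, and 100.4 CPM in Nrf2 eyes. The groups did not overlap at P40, and at P20 they overlapped. The fitted differences were 3.20-fold at P20 (log2 1.68 ± 0.26, SE, n = 7 mice) and 4.76-fold at P40 (log2 2.25 ± 0.26, SE, n = 9 mice), and 1.90 ± 0.18 on the log2 scale at P20 without mice 3 and 4.

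*Map1b* was about as abundant in both kinds of eye, at 124 ± 55.5 CPM in control and 138 ± 22.8 CPM in Nrf2 eyes at P20 (SD, n = 7), and at 136 ± 52.6 and 172 ± 61.7 CPM at P40 (SD, n = 9). Its log2 differences were 0.23 ± 0.24 and 0.30 ± 0.26 (SE, edgeR adjusted *P* = 0.641 and 0.760). The Nrf2 eye was higher in 4 of 7 mice at P20 and 6 of 9 at P40.

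**Figure D2:**
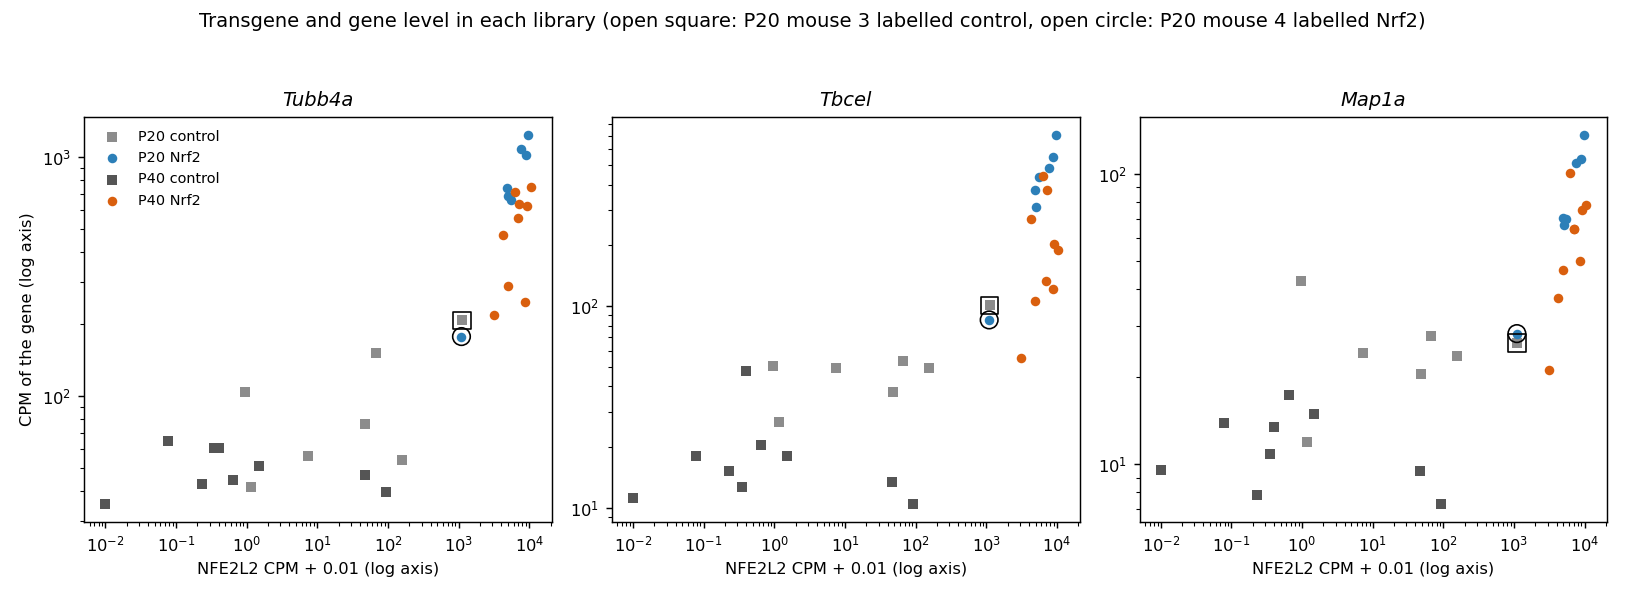
CPM of *Tubb4a*, *Tbcel*, and *Map1a* against CPM of the human *NFE2L2* transgene in each of the 32 libraries, both on log axes, with 0.01 added to the transgene. The 2 open symbols, the library labelled as control of P20 mouse 3 and that labelled as Nrf2 of P20 mouse 4, lie beside each other at 1109.8 and 1096 CPM of the transgene, between the other control and the other Nrf2 eyes.

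The plot of each gene against the transgene places the 2 libraries that stood apart between the groups for *Tubb4a*, at 207 and 177 CPM, and for *Tbcel*, at 101 and 85.5 CPM. Their *Map1a* levels of 26.1 and 28.2 CPM lay within the range of the other P20 control eyes, which reached 42.9 CPM. Among the P40 Nrf2 eyes, that of mouse 8 had the lowest transgene level and also the lowest levels of *Tubb4a*, *Tbcel*, *Map1a*, and *Tubb2a*.

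Taken mouse by mouse on the log2 scale, the median difference of *Tubb4a* was 3.57 at P20 (range, 0.23 to 4.18) and 3.29 at P40 (2.45 to 4.33). That of *Tbcel* was 3.05 (0.68 to 4.04) and 3.29 (2.40 to 5.29), and that of *Map1a* was 1.70 (0.03 to 2.55) and 2.21 (1.48 to 3.39). The smallest difference of all 3 genes at P20 was in mouse 4. *Tubb2a* differed by a median of 1.03 and 0.90, *Tubb5* by 0.27 and 0.84, and *Tuba1a* by 0.10 and 0.59.

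**Figure D3:**
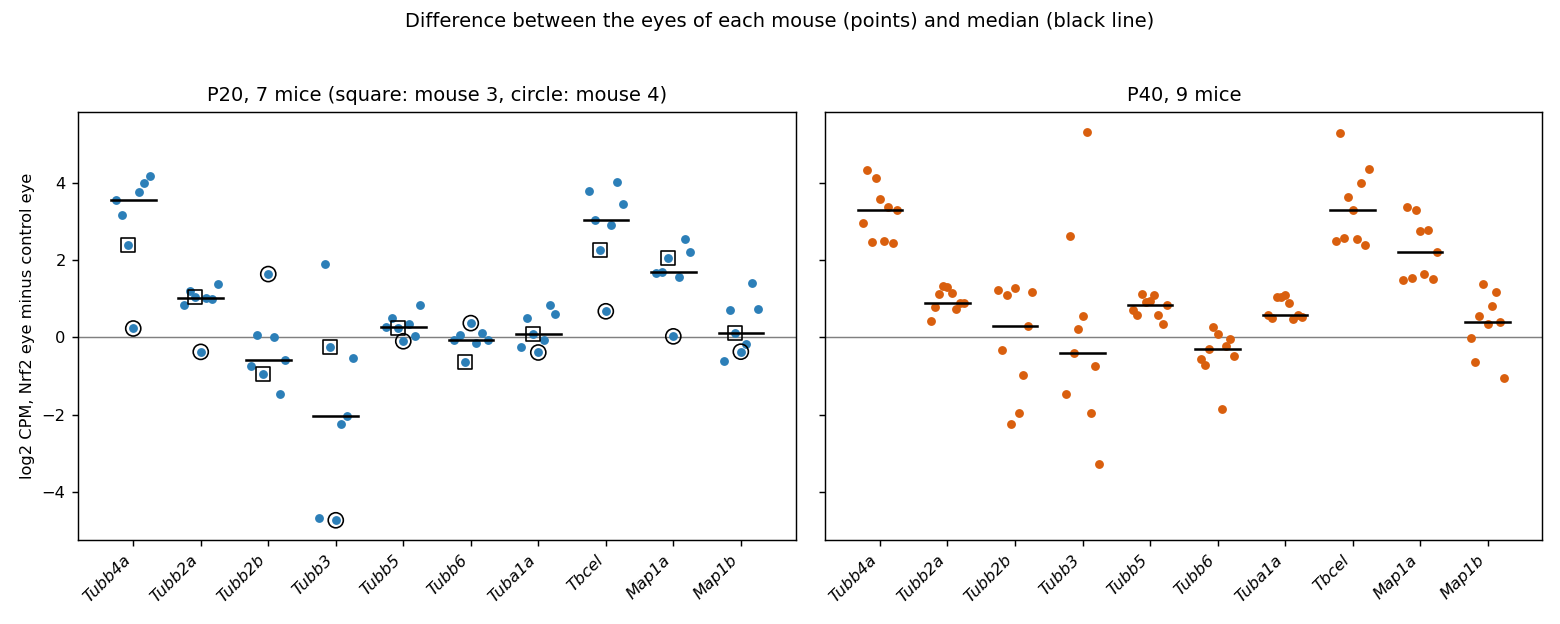
Difference in log2 CPM, Nrf2 eye minus control eye, for each of the 7 mice at P20 and 9 mice at P40, with a line at the median of each gene and the square and the circle marking P20 mice 3 and 4. All mice lie above 0 for *Tubb4a*, *Tbcel*, and *Map1a*, and at P40 also for *Tubb2a*, *Tubb5*, and *Tuba1a*.

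In eyecup RNA, fewer cells of a type and less RNA per cell cannot be told apart. Several markers of cell types moved with the same contrast. At P40, 5 of 8 RPE markers were lower in Nrf2 eyes, among them *Rpe65* (log2 −2.82, edgeR adjusted *P* = 0.000281), although their summed level overlapped between the groups, at 10265 to 63956 CPM in control and 11776 to 66394 CPM in Nrf2 eyes. All 8 cone markers were lower, and their sum was 278 to 2165 CPM in control and 30.1 to 301 CPM in Nrf2 eyes. Of 8 macrophage and microglia markers, 4 were higher, such as *C1qa* (1.91, edgeR adjusted *P* = 0.000587), with sums of 63.6 to 462 and 92.9 to 334 CPM. No marker of these 3 lists was at 0 in every library. Over all genes tested at P40, 1.23% were lower and 3.33% higher. Of the other lists, 1 of 6 tested rod and 1 of 6 dividing-cell markers were lower, and 1 of 9 fibroblast and mural-cell markers was higher. None of the Muller glia, Schwann cell, melanocyte, endothelium, and muscle markers passed. Of 14 tested markers of inner retinal neurons, *Nefm* was higher (4.65, edgeR adjusted *P* = 0.00700) and the others did not pass, with 5 of 14 differences above 0 and a median log2 difference of −0.80. At P20, *Rpe65* (−2.17), the cone markers *Gnat2* (−1.69) and *Opn1sw* (−5.12), and the mural-cell marker *Rgs5* (−1.35) were lower in Nrf2 eyes (edgeR adjusted *P* = 0.0198, 0.0297, 0.0461, and 0.0414), and none of 8 macrophage and 11 tested neuron markers passed. Over all genes tested at P20, 0.485% were lower and 2.93% higher. The part of these cell types in the differences of the tubulin genes was not tested.

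Other genes of the microtubule system were taken from fixed lists of 125 genes, of which 118 were tested at each age. With Nrf2, 7 rose and none fell at P20, and 9 rose and none fell at P40, or 5.93% and 7.63% higher beside 2.93% and 3.33% of all genes tested. The lists were chosen with earlier results of these data known, so these shares are given as a description. Each of the 7 at P20 also passed without mice 3 and 4. The median log2 difference over the lists was 0.03 at P20 and 0.01 at P40, beside −0.04 and −0.03 over all genes tested.

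Of those that rose, 4 at each age were tubulins. Of 9 other α- and β-tubulin genes, 5 were tested, and 4 of them rose at both ages. *Tubb4b*, a β-tubulin of cilia and many other cell types, rose by 1.36 ± 0.22 at P20 and 1.28 ± 0.17 at P40 on the log2 scale (SE, edgeR adjusted *P* = 0.0176 and 0.000882). *Tuba4a* rose by 1.21 and 1.14 (edgeR adjusted *P* = 0.0158 and 0.00177), *Tuba1c* by 1.10 and 1.28 (0.0105 and 0.000885), and *Tuba1b* by 0.81 and 0.98 (0.0403 and 0.00511). All 4 were higher in the Nrf2 eye of all 7 mice at P20 and all 9 at P40, and *Tuba1b*, *Tuba1c*, and *Tuba4a* did not overlap between the groups at P40. When 1 mouse was left out in turn, all 4 passed 9 of 9 times at P40, whereas at P20 *Tuba1c* passed 7 of 7 times, *Tubb4b* and *Tuba4a* 3 of 7, and *Tuba1b* 1 of 7. *Tuba8* did not pass (−1.03 and 0.21, edgeR adjusted *P* = 0.236 and 0.949). *Tuba3a*, *Tuba3b*, *Tubal3*, and *Tubb1* were too low to be tested.

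Set per length of exon, the level summed over all β-tubulin genes was 399.5 ± 65.9 CPM per kb in P20 control eyes and 1120.0 ± 361 in P20 Nrf2 eyes, and 366 ± 66.3 and 969 ± 199 at P40 (SD, n = 7 and 9 eyes per group). The sum over α-tubulin genes was 892 ± 119 and 1492 ± 335 at P20, and 791 ± 78.6 and 1610.0 ± 348 at P40. The make-up of the β-tubulin level differed between the eyes as well. *Tubb4a* made up 10.8% ± 5.35 of it in P20 control and 30.5% ± 6.74 in P20 Nrf2 eyes, and 6.30% ± 1.81 and 22.7% ± 7.18 at P40. The share of *Tubb2a* was 23.8% ± 6.05 and 15.99% ± 2.34 at P20, and 20.6% ± 4.40 and 15.2% ± 3.57 at P40, although its level was higher in Nrf2 eyes. *Tubb4b* remained the most abundant β-tubulin, at means of 46.8% to 57.1% in the 4 groups, and *Tuba1b* the most abundant α-tubulin, at 57.5% to 62.6%. *Tuba1a* made up 29.8% ± 4.69 and 20.7% ± 3.53 of the α-tubulin level at P20, and 23.96% ± 4.33 and 20.2% ± 4.81 at P40. These shares rest in part on divided reads for *Tuba1a*, *Tuba1b*, *Tuba1c*, *Tubb2a*, and *Tubb2b*.

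**Figure D4:**
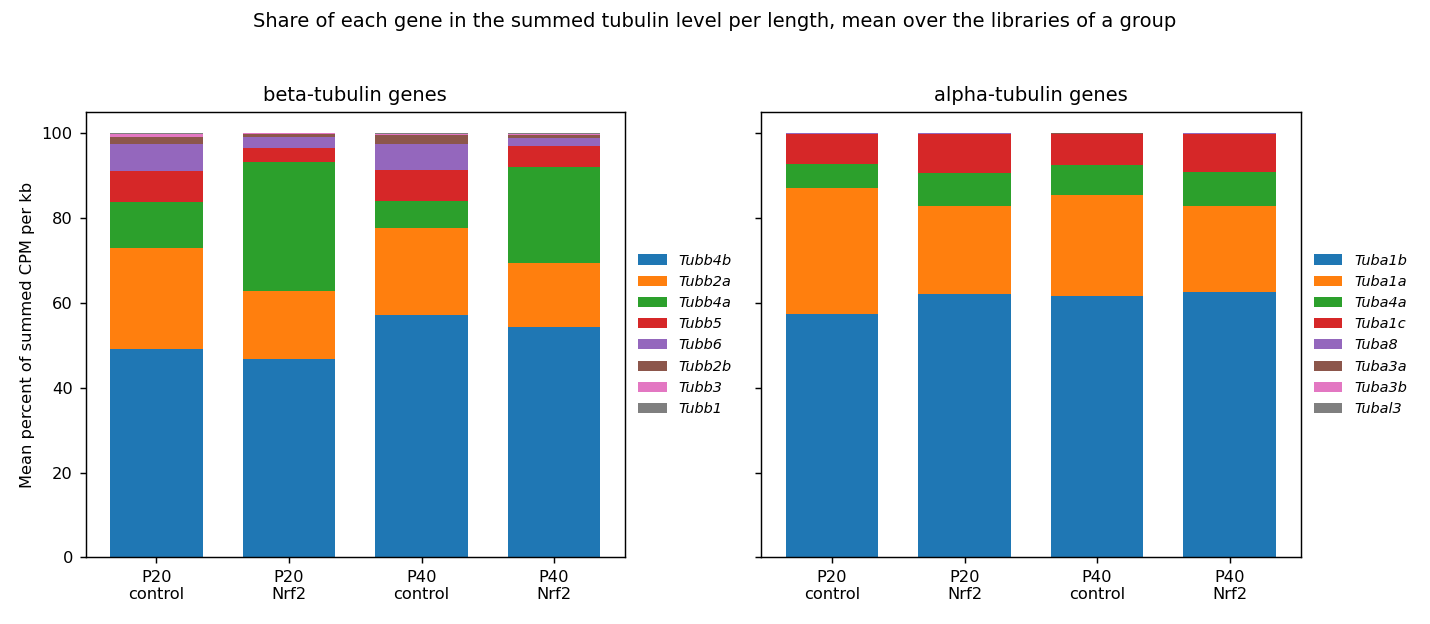
Mean percent of the summed CPM per kb taken by each β-tubulin gene and each α-tubulin gene in the 4 groups of eyes, stacked to 100. The segment of *Tubb4a* is at 10.8% and 6.30% in control eyes of P20 and P40 and at 30.5% and 22.7% in Nrf2 eyes.

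Among the 10 genes themselves, the order of mean levels per kb changed with the group. In control eyes, *Tuba1a* was highest (267 CPM per kb at P20 and 190.2 at P40), apart from *Tubb2a* below it (94.0 and 73.6), where apart means that mean ± SD did not overlap. In Nrf2 eyes, *Tubb4a* and *Tuba1a* came first and lay within each other's spread, at 359 and 301 CPM per kb at P20 and 225 and 321 at P40. *Map1a* had the lowest mean in control eyes (2.08 and 0.955 CPM per kb), within the spread of *Tubb3*, whose median was lower (0.621 and 0.752, against 1.99 and 0.892 for *Map1a*). *Tubb3* had the lowest mean in Nrf2 eyes (0.682 and 2.85). *Tbcel* lay at 6.19 and 2.20 CPM per kb in control eyes, within the spread of *Tubb2b* above it, and at 49.6 and 24.8 in Nrf2 eyes, within the spread of *Tubb5*.

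Outside the tubulins, *Kif2a*, a kinesin that takes microtubules apart at their ends, rose by 2.15 ± 0.25 at P20 and 2.33 ± 0.30 at P40 on the log2 scale (SE, edgeR adjusted *P* = 0.00921 and 0.000696) and was higher in the Nrf2 eye of all 16 mice. *Map6d1*, related to the stabilizing protein MAP6, rose by 2.14 and 1.31 (edgeR adjusted *P* = 0.0164 and 0.0295), but passed only 2 of 7 times at P20 and 4 of 9 at P40 when 1 mouse was left out, against 7 of 7 and 9 of 9 for *Kif2a*. *Kif2a* and *Map6d1* did not overlap between the groups at P20, which held for 1.18% of all genes tested in the same direction. *Map7d2*, whose relatives recruit kinesin-1 to microtubules, rose by 4.44 ± 0.37 at P40 (SE, edgeR adjusted *P* = 3.13e-05), and its P20 difference passed without mice 3 and 4 (4.33, edgeR adjusted *P* = 0.0280). *Dclk2*, a doublecortin-like kinase, rose by 2.07 at P40, and *Ttll7*, which adds glutamates to β-tubulin tails, by 1.43 (edgeR adjusted *P* = 0.0201 and 0.0421). *Ttll12* rose by 0.62 at P20 (edgeR adjusted *P* = 0.0265). With 1 mouse left out, *Map7d2* passed 9, *Dclk2* 7, and *Ttll7* 2 of 9 times at P40, and *Ttll12* passed 2 of 7 times at P20.

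None of the 7 folding cofactors passed the edgeR test at either age, beside 3.41% of all genes tested at P20 and 4.57% at P40 in either direction. Nothing is read from a count of 0 in a list of this size. Their log2 differences at P20 and P40 were 0.16 and 0.14 for *Tbca*, 0.11 and −0.04 for *Tbcb*, −0.01 and −0.21 for *Tbcc*, −0.08 and 0.03 for *Tbcd*, 0.09 and 0.31 for *Tbce*, and 0.29 and 0.20 for *Tbccd1*. *Arl2*, the small GTPase that works with cofactor D, was nearest at P20 (0.60, edgeR adjusted *P* = 0.0574). None of 13 tested prefoldin and chaperonin genes, 12 nucleation genes, 15 end-binding genes, and 19 motor genes passed the edgeR test at either age. At an unadjusted *P* value under 0.05 there were 4, 2, 2, and 1 of them at P20 and 1, 1, 3, and 0 at P40, respectively, and 2 and 0 of the folding cofactors, beside 2964 of 16303 genes tested at P20 and 2173 of 16686 at P40.

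The second question was how these genes differ between P20 and P40. The 2 ages come from different mice, and the control eyes of each age also enter the comparisons with Nrf2, so the values are set side by side without being related to each other. In control eyes, *Tubb4a*, *Tbcel*, and *Map1a* were lower at P40 than at P20, by −0.93 ± 0.28, −1.44 ± 0.30, and −1.06 ± 0.23 on the log2 scale (SE, n = 7 and 9 eyes). They were the 3 of the 10 genes that passed the threshold, beside 14.8% of the 16832 genes tested in either direction and 6.42% lower. Because these 3 genes had also been named earlier for this contrast, nothing is read from that count. Without P20 mice 3 and 4, the differences were −0.38, −1.16, and −1.03, and none of the 10 genes passed. The median levels of *Tbcel* in control eyes were 49.7 CPM at P20 and 15.2 CPM at P40, and the groups overlapped through mouse 1 at P40, at 47.8 CPM.

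None of the other 7 genes passed between the ages in control eyes. *Tuba1a* came nearest (−0.43 ± 0.18, SE, edgeR adjusted *P* = 0.0933), followed by *Tubb2a* (−0.30 ± 0.16, SE, edgeR adjusted *P* = 0.175), and *Tubb5* was level (−0.02 ± 0.14, SE, edgeR adjusted *P* = 0.944). The log2 differences of the remaining 4 were −1.08 for *Tubb3*, −0.14 for *Tubb6*, 0.19 for *Map1b*, and 0.20 for *Tubb2b* (edgeR adjusted *P* = 0.373, 0.537, 0.630, and 0.746).

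Between ages in control eyes, 13 of 118 tested genes of the fixed lists rose and 7 fell, which is 16.9% beside 14.8% of all genes tested. Those that rose included 4 of 7 folding cofactors, among them *Tbca* (1.39, edgeR adjusted *P* = 0.0452), which holds β-tubulin, and *Arl2* (1.22, 0.0209), and 5 of 13 prefoldin and chaperonin genes, led by *Pfdn5* (1.399, edgeR adjusted *P* = 0.0342) and *Pfdn1* (1.39, 0.0318). *Pfdn4* and *Pfdn2* rose by 1.18 and 1.16, and *Svbp*, the partner of the enzymes that remove the terminal tyrosine of α-tubulin, by 1.24 (edgeR adjusted *P* = 0.0370, 0.0379, and 0.0340). *Dclk2* fell by 1.83 on the log2 scale (edgeR adjusted *P* = 0.0292). The levels at P40 were uneven. *Tbca* was at 30.9, 49.9, and 264 CPM (lowest, median, highest) in P40 control eyes and at 27.7 to 37.6 CPM in P20 control eyes. In the P40 control eyes of mice 3, 5, and 8, *Tbca* was at 264, 136, and 81.2 CPM. *Pfdn1* was at 283, 224, and 284 CPM there, against a group median of 96.5 CPM. The part of these libraries in the rise was not tested. Without P20 mice 3 and 4, *Pfdn5*, *Pfdn1*, *Pfdn2*, *Pfdn4*, *Svbp*, and *Dclk2* no longer passed, although the difference of *Pfdn5* was 1.41 (edgeR adjusted *P* = 0.0994). The values of *Tbca* and *Arl2* without these mice are not given here. Over all genes tested, the calls fell from 2483 to 158.

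**Figure D5:**
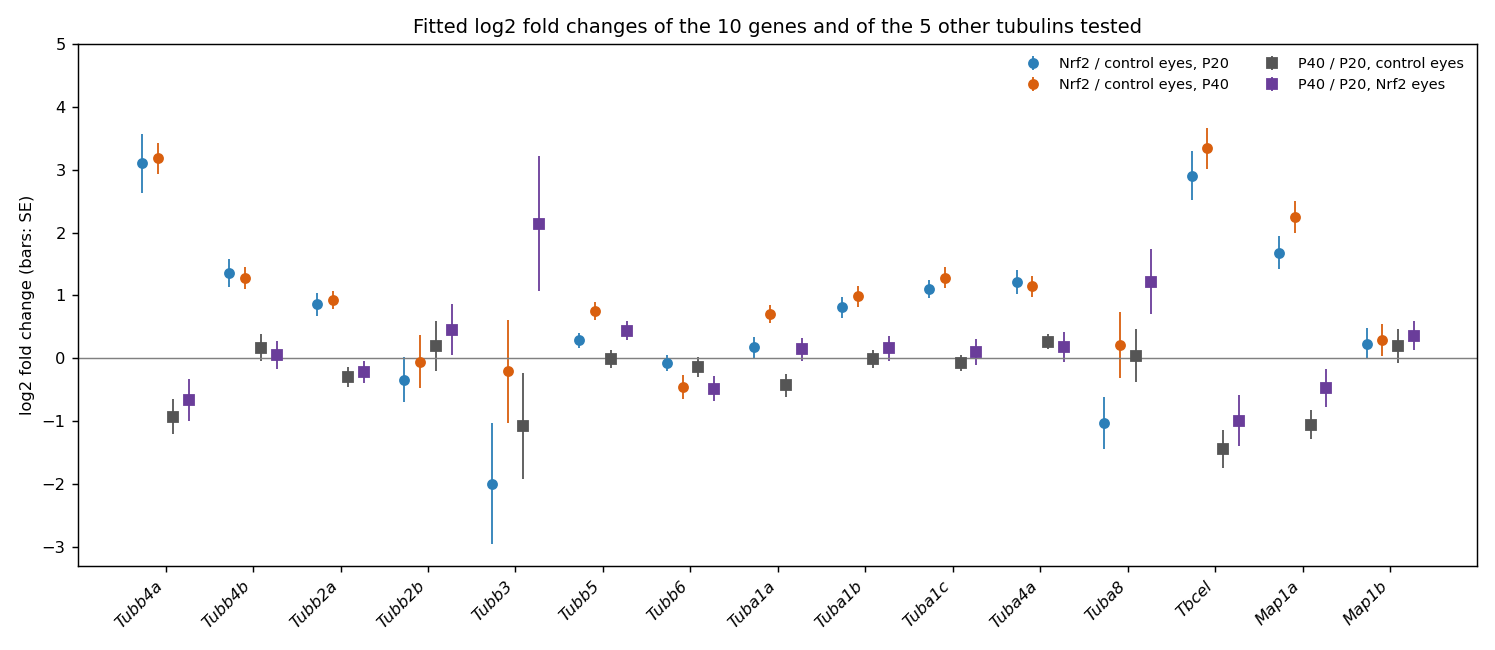
Log2 fold changes with SE of the 10 genes and of *Tubb4b*, *Tuba1b*, *Tuba1c*, *Tuba4a*, and *Tuba8* with Nrf2 at P20 and P40 and from P20 to P40 in control and in Nrf2 eyes. *Tubb4a*, *Tbcel*, and *Map1a* stand highest with Nrf2, between 1.68 and 3.34, and below 0 with age in both kinds of eye.

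In Nrf2 eyes, none of the 10 genes passed between P20 and P40, beside 0.502% of the 16745 genes tested. At an unadjusted edgeR *P* value under 0.05 there were 3 of the 10, beside 25.8% of all genes tested. *Tubb4a* differed by −0.66 ± 0.33, *Tbcel* by −0.99 ± 0.40, and *Map1a* by −0.47 ± 0.31 (SE, edgeR adjusted *P* = 0.219, 0.142, and 0.3298). *Tubb5* was 0.44 ± 0.15 higher at P40 (SE, edgeR adjusted *P* = 0.113) and was the gene of the 10 that DESeq2 called. *Tubb6* and *Tubb3* differed by −0.48 and 2.14 (edgeR adjusted *P* = 0.153 and 0.217), the latter with the library of mouse 6 in the P40 group. *Tubb2a*, *Tuba1a*, *Map1b*, and *Tubb2b* differed by −0.22, 0.14, 0.36, and 0.46 (edgeR adjusted *P* = 0.426, 0.641, 0.312, and 0.491). None of the 119 tested genes of the fixed lists passed. At an unadjusted edgeR *P* value under 0.05 there were 30 of them, or 25.2%, near the 25.8% of all genes tested.

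Whether the effect of Nrf2 itself differed between the ages was tested in one fit over all 32 eyes. None of the 10 genes passed, beside 0.00557% of 17959 genes, and the edgeR adjusted *P* value was 0.9995 for each of the 10, with none called by DESeq2 or limma voom. The effect was 0.54 ± 0.21 larger at P40 on the log2 scale for *Tuba1a* and 0.47 ± 0.18 larger for *Tubb5* (SE), the 2 genes at an unadjusted *P* value under 0.05. Of all genes tested, 2.39% were under 0.05 unadjusted. For *Tubb4a*, *Tubb2a*, *Tbcel*, and *Map1a* it differed by 0.08, 0.07, 0.44, and 0.57. *Tuba1a* and *Tubb5* thus passed at P40 and not at P20, but the test of the difference between the ages did not pass for either.

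The genes whose levels ran most like these were sought among 11791 other genes by Pearson's r of log2 CPM over the 32 libraries, given as a description because the libraries share the Nrf2 contrast and depth. *Tubb4a* was most like *Txnrd1* (r = 0.975), *Adam23* (0.974), and *Gclc* (0.972). *Txnrd1* and *Gclc* are classical Nrf2 targets of thioredoxin and glutathione metabolism. *Tbcel* was most like *Phka1* (0.9599), *Rtn4* (0.959), and *Tubb4a* (0.957), and *Map1a* like *Tbcel* (0.952), *Tubb4a* (0.943), and *Igfn1* (0.931). After the 4 group means were taken out, r was 0.801 between *Tubb4a* and *Tbcel*, 0.776 between *Tubb4a* and *Map1a*, 0.761 between *Tbcel* and *Map1a*, and 0.687 between *Tubb4a* and *Tubb2a*, in which the 2 libraries that stood apart also enter. By this measure, the genes most like *Tubb4a* were *Adam23* (r = 0.906), *Aox1* (0.895), and *Sulf2* (0.882), rather than *Txnrd1* or *Gclc*.

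The remaining genes ran with others. *Tubb2a* was most like *Slc29a4* (r = 0.934), *Tubb4a* (0.925), and *Pld3* (0.917). *Tubb3* was most like *Scg2* (0.897), *Celf4* (0.894), and *Nefl* (0.888), all known from neurons. *Tubb5* was most like *Sfxn1* (0.897), *Dynlt1a* (0.882), and *Gstm2* (0.878), *Tuba1a* like *Smyd2* (0.891), *Pdlim7* (0.876), and *Ndn* (0.859), *Tubb2b* like *Erich5* (0.929), *Fermt3* (0.928), and *Cd109* (0.920), *Tubb6* like *Tgm1* (0.846), *Cdk2* (0.832), and *Cnn2* (0.813), and *Map1b* like *Fam216a* (0.783), *Dnajc12* (0.775), and *Tceal1* (0.752).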

How the data were processed

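Estimated counts per gene were analysed for 32 eyecup libraries of 16 mice labelled as *rd1*. According to the methods, the authors aligned reads to mm10 (STAR, featureCounts) and separately estimated counts per gene with Salmon (0.9.1 in the submitters' processing notes), tximport, and DESeq2. The deposited values are expected (estimated) counts that the authors rounded to whole numbers and did not normalize. That they are Salmon's was inferred from the genes listed. The labels mention separate sequencing runs without assigning samples, so run was not fitted.

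Counts were tested in R 4.3.3 with the quasi-likelihood test of edgeR 4.0.16 after filterByExpr and TMM normalization, with mouse as a block for the Nrf2 contrasts and for their difference between ages, and without it between ages. *P* values were adjusted by Benjamini-Hochberg over all genes tested, with a threshold of 0.05. The SE of a fitted log2 difference was taken as its absolute size divided by the square root of the F statistic of the edgeR test. Levels are CPM, and differences between the eyes of a mouse used log2 CPM with a prior count of 2. Positions come from GENCODE vM21 (GRCm38). The tests were also run on simulated counts with a fixed dispersion and no effect of mouse. That run cannot show how the tests behave with paired eyes, and its outcome is not given here.

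The members and gene lists were chosen with earlier results of these data known. All 10 members are named, with up to 8 genes of the lists past the threshold per comparison by size of change, the other tubulins and folding cofactors, and the 3 genes most like each member. Any other gene named was chosen after its values were seen. Pairing comes from the labels and methods. After group means were removed, fellow eyes had an average correlation over genes of 0.0214 for P20 mice and 0.0991 for P40 mice, compared with −0.000551 and −0.0065 for eyes of different mice. Nothing in the labels says whether *P* values cover more than the spread between these eyes. Alternatives were DESeq2 1.42.0, limma voom (3.58.1), RLE normalization, other filters, robust dispersion, one fit over all eyes, the fit without the block, and leaving out mice. Summed counts of near-identical tubulins were added after seeing the data.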

Additional observations from a re-analysis of the deposited data

Results flagged for a closer look

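Of 60 groups of values examined for a sample far from the rest, 7 held one, and chance alone marks about 1 group in 20. At P20, mouse 4 had the lowest difference between its eyes, far from the other 6 mice, for *Tubb2a* (log2 −0.37) and *Map1a* (0.03). The P20 control library of mouse 3 had the highest *Tbcel* level of its group (100.9 CPM). These are the 2 mice whose libraries stood apart by the transgene. The P40 control eye of mouse 1 was highest for *Tbcel* at 47.76 CPM, with 0.393 CPM of the transgene.

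*Tubb3* was far above the rest of the group in the P20 Nrf2 eye of mouse 2 (6.344 CPM) and in the P40 Nrf2 eye of mouse 6 (30.97 CPM). The summed markers of inner retinal neurons in those 2 libraries were 556 and 2293 CPM, the highest of their groups. *Tubb6* differed by −1.84 on the log2 scale between the eyes of P40 mouse 6, the lowest of the 9 mice.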

How the results depend on the processing

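Of 1543 log2 differences of single genes recomputed under alternatives, 1351 kept their direction and side of the threshold, 154 lost the threshold, 4 gained it, and 34 reversed. Differences that passed neither in the fit reported above nor in the alternative count among those kept. Only differences that had passed could lose the threshold, so the share of passing results that were lost is larger than these totals show. The number of the 10 genes past the threshold ranged, when 1 mouse or eye was left out, from 1 to 4 with Nrf2 at P20, 5 to 6 at P40, 2 to 3 between ages in control eyes, and 0 to 0 in Nrf2 eyes, as also when the ages' Nrf2 effects were compared. Between ages, it was 0 in control eyes without P20 mice 3 and 4, and in Nrf2 eyes 1 with DESeq2 and 2 with limma voom. The cause was not tested. Without the replicate block, 4 genes passed at P20, 6 at P40, and 0 for the difference, and the genes that passed were the same as with it (*Map1a*, *Tbcel*, *Tubb2a*, and *Tubb4a* at P20, and with them *Tubb5* and *Tuba1a* at P40). All these counts include *Tubb4a*, *Tbcel*, and *Map1a*, which were chosen from the same data. Nothing is therefore read from how steady the counts were. No paired analysis was possible because mice differ in the comparisons between ages.

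Reversals concerned genes that did not pass. With Nrf2 at P40, *Tubb3* was 0.93 without the replicate block and −0.68 to 0.21 with 1 mouse left out, *Tubb2b* was −0.23 to 0.21 with 1 mouse left out, and *Tuba8* was −0.29 with limma voom and −0.11 to 0.49 with 1 mouse left out. At P20, *Tubb6* was −0.17 to 0.039 with 1 mouse left out. In control eyes between ages, *Tubb3* was 0.21 with limma voom, and *Tubb5* was 0.012 with both DESeq2 and RLE and −0.095 to 0.036 without 1 eye. The difference of the Nrf2 effect was −0.54 for *Tubb4a*, −0.16 for *Tubb2a*, −0.10 for *Tbcel*, and −0.10 for *Map1b* without P20 mice 3 and 4, and −0.086 for *Tubb2a* with limma voom. Leaving out 1 mouse gave −0.31 to 0.24 for *Tubb4a*, −0.13 to 0.13 for *Tubb2a*, and −0.077 to 0.25 for *Map1b*.

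Over all genes tested, the calls were 556 with Nrf2 at P20 (DESeq2, 1951; limma voom, 2605; no filter, 348; no replicate block, 1093; leaving out a mouse, 111 to 1999) and 762 at P40 (DESeq2, 1380; limma voom, 1327). Between ages there were 2483 in control eyes (4330, 3747, and 914 with DESeq2, limma voom, and no filter, and 158 without P20 mice 3 and 4) and 84 in Nrf2 eyes (1635, 2213, and 31, 20 without those mice, and 496 in one fit over all eyes). The difference of the Nrf2 effect had 1 call and 12 with DESeq2. Of the other tubulins at P20, *Tuba1b* passed in 9 and *Tubb4b* and *Tuba4a* in 12 of 16 alternatives. At P40, *Map6d1* passed in 11 and *Ttll7* in 9 of 17.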
